A study of Bos taurus with 12 samples.

Results

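The genes described here build and shape the actin cortex, the thin filament network under the plasma membrane of every cell. They are 40 genes chosen by symbol, and all 40 were found among the 32637 genes of the count table. They comprise the cytoplasmic actins, the subunits of the Arp2/3 complex, the ezrin, radixin and moesin (ERM) family, the proteins that bind actin monomers, cap, cut and crosslink filaments, non-muscle myosin II and tropomyosins, and the small GTPases and kinases that steer them. The samples were bovine blastocysts produced in vitro and collected at the expanded stage on Day 7 and Day 8, in 6 female and 5 male libraries. Embryos were cut in 2, one piece was sexed by genomic PCR, and the remaining pieces of 2 embryos of one sex were pooled for a library, each piece holding inner cell mass and trophectoderm. A replicate is therefore a pool, the day of its embryos is not given in the labels, and no treatment was applied to either sex. A pooled 4-cell sample sequenced with long reads was not analysed here.

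The Arp2/3 complex starts new filaments as branches on existing ones, and it is built from 2 actin-related proteins and the ARPC subunits, some of which have 2 alternative versions. ERM proteins tether the cortex to membrane proteins, profilins and beta-thymosins bind actin monomers, and myosin II pulls on filaments to give the cortex its tension. In the early embryo, cortical actin and its contractility are known for their part in compaction, in the sealing of the trophectoderm epithelium and in the setting aside of the inner cells.

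Of the 40 genes, 39 passed the filter on low counts, and 3 of these were called different between the sexes, all of them higher in females. They were the ERM gene MSN, the beta-thymosin gene TMSB4X and the Arp2/3 subunit gene ARPC5. MSN and TMSB4X were the only members on the X chromosome, and ARPC5 was the only called member among the 37 tested autosomal ones. The test was edgeR's quasi-likelihood test of males against females, and a call required an FDR (Benjamini-Hochberg) under 0.1 together with a change of over 1.5-fold. Among all 12802 tested genes, 1.5% were called higher in females and 0.414% higher in males. Of the 476 tested X-linked genes, 27.7% were called higher in females, so that a call on an X-linked gene was common in these libraries. Of the 12172 tested autosomal genes, 0.361% were called higher in females and 0.345% higher in males. No member was called higher in males. At an unadjusted p under 0.05, 4 members lay on the female side (ROCK1 beside the called ones) and 3 on the male side (ARPC3, MYL6 and TPM3), against 6.95% and 6.26% of all tested genes.

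Levels are in CPM, read counts put on one scale across libraries by TMM factors, and log2 fold changes are male over female, so that a negative value is higher in females. The median log2 fold change was 0.08 over the 39 tested members and 0.01 over all tested genes. The 37 autosomal members had a median of 0.10, and their values ran from -0.63 for ARPC5 to 0.62 for ARPC3. The standard errors of the 39 members ran from 0.13 to 0.62. For 12 of the 36 members that were not called, the 95% interval of the difference stayed within a fold of 1.5 in both directions, among them ACTG1, ACTR3, RDX, CFL1 and RHOA. For the other 24 an interval of this width did not exclude such a fold.

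**Figure D1:**
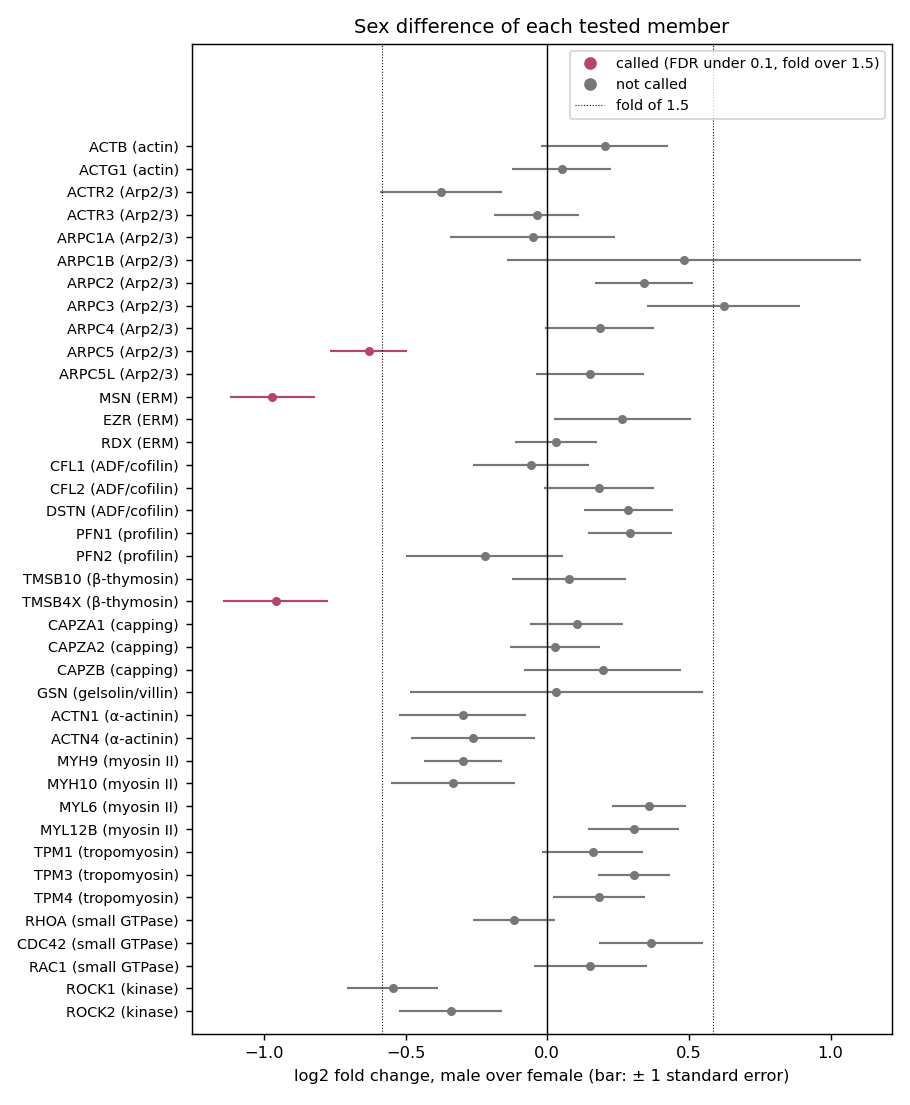
Log2 fold change, male over female, of the 39 tested members (horizontal axis, bars ± 1 standard error), ordered by role, with dotted lines at a fold of 1.5. The 3 called members, ARPC5, MSN and TMSB4X, sit to the left of 0 at -0.63, -0.97 and -0.96, and the other members lie between -0.55 and 0.62.

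The libraries held between 6664112 and 16162985 counted reads in females and between 9942952 and 21392764 in males, so that counting error was small for all members but the lowest. The 40 genes took from 4.01% to 6.86% of all counts in females and from 4.04% to 7.96% in males. XIST was between 52.3 and 261 CPM in the female libraries and 3.97 CPM or less in the male ones, and no library went against its sex label. Male replicate 5 stood apart. It had 14937 genes with a count, against 16985 to 18550 in the other libraries, and it was the highest library for 16 of the 39 tested members and the lowest for 5. Without it, MSN, TMSB4X and ARPC5 were again the called members, at log2 fold changes of -0.94, -0.87 and -0.71. Female replicate 3 was the lowest library for 15 members. In pooled pieces of embryos, fewer cells of a type and less RNA per cell cannot be told apart.

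The actins took many reads and neither was called. ACTB (chromosome 25, 38799230 to 38802643), the main cytoplasmic beta-actin, was by counted reads, not per length, the first to the fourth gene of each library and took from 1.08% to 3.47% of its counts. In females, ACTB ran from 9957 to 27013 CPM with a median of 13363 CPM, and the males were at 14892, 19067, 11309, 19399 and 35983 CPM. The ranges overlapped almost fully, and the highest values were in male replicate 5 and female replicate 6. The log2 fold change was 0.20 (SE 0.22, adjusted p = 0.752), with a 95% interval from -0.28 to 0.69 that does not exclude a 1.5-fold higher level in males. ACTG1, the gamma-actin, had 4585 ± 1069 CPM (mean ± SD, n = 6) for the female pools and 5015 ± 1400 CPM (n = 5) for the male pools, a log2 fold change of 0.05. The actins share most of their coding sequence, and reads from one can be counted on the other.

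Of the 9 Arp2/3 subunit genes, ARPC5 was lower in males and 8 were not called. ARPC5 (chromosome 16, 64674648 to 64684040) encodes the smallest subunit of the complex. It had a female range of 281 to 437 CPM with a median of 356 CPM, and male values of 210, 247, 162, 249 and 327 CPM. The female libraries were higher as a group, but male replicate 5 lay above the lowest females. The log2 fold change was -0.63 (SE 0.14, adjusted p = 0.0526), or 1.55-fold higher in females, just past the fold required. Within each of the 3 library numbers, the first number in a library's name, all females were above all males, with differences of -0.64, -0.84 and -0.49 on the log2 scale. Each number held only 2 females and 2 males, or 1 male in number 2. The fit used the library number as a block, so the separation within it is not separate support for the call. The uncalled ROCK1 was separated within each number in the same way. The call did not hold without the library number in the fit (-0.55, adjusted p = 0.175) or without any one of 7 libraries, namely female replicates 1, 2, 4 and 6 and male replicates 1, 2 and 3. The adjusted p without 1 library ran from 0.0170 without male replicate 5 to 0.218 without male replicate 3.

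ARPC5L encodes the alternative version of the same subunit, and it was not called. It had 215 ± 77.1 CPM (mean ± SD, n = 6) for the female pools and 259 ± 82.2 CPM (n = 5) for the male pools, a log2 fold change of 0.15 (SE 0.19). ARPC5 took from 52.7% to 68.0% of the counts on the pair in females, with a median of 64.9%, and 48.4%, 49.1%, 50.9%, 47.4% and 46.2% in the males. Every female library lay above every male library in this share, although the CPM of ARPC5 alone overlapped. The share is a count of reads, not of molecules, since the genes differ in length, but that does not change between libraries.

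The other Arp2/3 genes differed in direction. ACTR2 and ACTR3, the actin-related proteins that form the first units of the new branch, had log2 fold changes of -0.38 and -0.04. ARPC2, part of the core that binds the mother filament, had 0.34, and ARPC4 had 0.18. ARPC3 had 0.62 (SE 0.27, adjusted p = 0.349) with few counts, 11.5 ± 3.02 CPM (mean ± SD, n = 6) for the female pools and 18.6 ± 7.18 CPM (n = 5) for the male pools. ARPC1A and ARPC1B, alternative versions of another subunit, had -0.05 and 0.48. Both values moved with male replicate 5, where ARPC1B stood at 515 CPM against 30.8 to 108 CPM in the other males. Without that library they were -0.39 and -0.27, and neither was called.

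**Figure D2:**
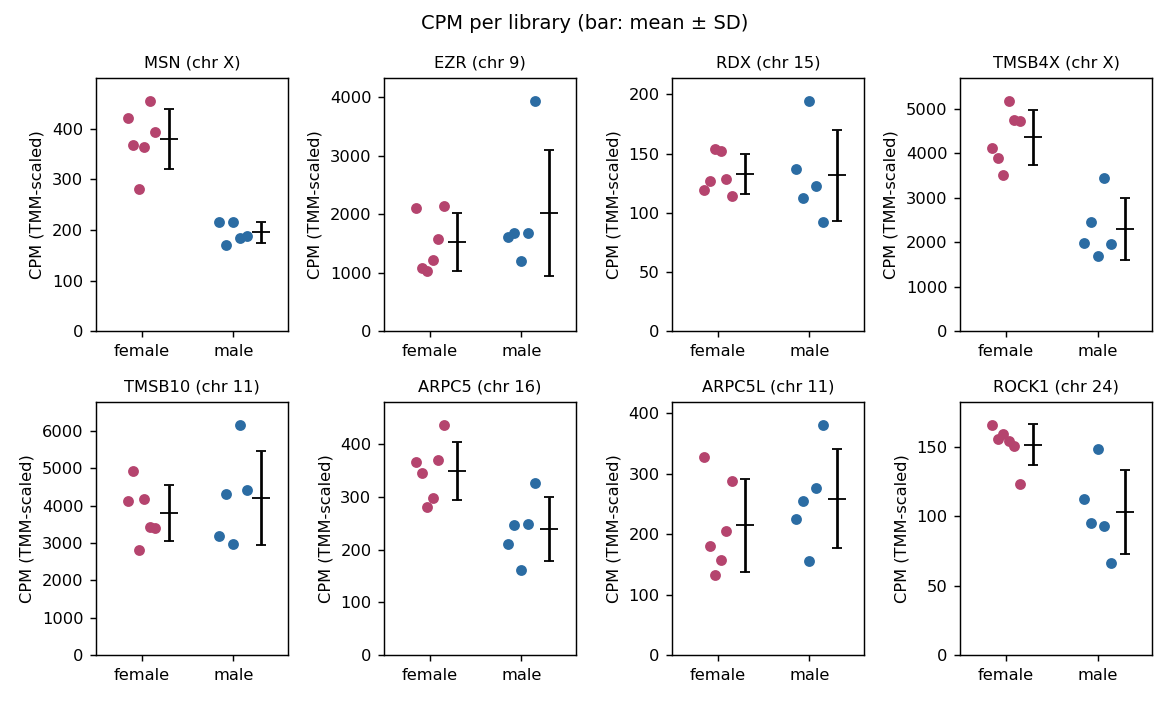
CPM scaled with TMM factors (vertical axis, from 0) in the 6 female and 5 male libraries for 8 members, with the mean ± SD beside the points. The females lie above all males for MSN (280 CPM and more against 216 CPM and less) and TMSB4X (3512 CPM and more against 3455 CPM and less), overlap with them in ARPC5 and ROCK1, and are mixed with them in EZR, RDX, TMSB10 and ARPC5L.

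MSN was the only ERM gene called. MSN (X chromosome, 94696645 to 94769333) encodes moesin, which links cortical filaments to membrane proteins. In females it ran from 280 to 454 CPM with a median of 381 CPM, and the males were at 215, 171, 216, 184 and 189 CPM. All females were above all males, and the males were close together. The log2 fold change was -0.97 (SE 0.15, adjusted p = 0.00884), or 1.96-fold higher in females. Within the library numbers 1, 2 and 3 the differences were -1.04, -0.56 and -1.18. All females above all males was also seen in 1.88% of all tested genes and in 29.2% of the X-linked ones, and the reverse, all males above all females, in 1.43% of tested genes and in none of the members. The median log2 fold change of all tested X-linked genes was -0.85.

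EZR encodes ezrin, the ERM protein of apical surfaces and microvilli, and RDX encodes radixin. EZR had 1527 ± 498 CPM (mean ± SD, n = 6) for the female pools and 2023 ± 1084 CPM (n = 5) for the male pools, and its log2 fold change of 0.27 (SE 0.24) was 0.01 without male replicate 5, which stood at 3929 CPM. RDX had 133 ± 16.8 CPM (mean ± SD, n = 6) for the female pools and 132 ± 38.4 CPM (n = 5) for the male pools, a log2 fold change of 0.03 (SE 0.14). Within the family, the share of MSN was lower in every male library. MSN took from 14.9% to 23.3% of ERM counts in females, with a median of 20.0%, and 10.9%, 8.68%, 13.4%, 9.28% and 4.48% in the males. The sexes did not overlap in this share. EZR took most of the rest, 73.8% ± 5.16 (mean ± SD, n = 6) for the female pools and 84.0% ± 6.73 (n = 5) for the male pools, with overlapping ranges.

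TMSB4X was lower in males and its partner TMSB10 was not called. Both encode beta-thymosins, small peptides that hold actin monomers in reserve. TMSB4X (X chromosome, 130698921 to 130700970) ran from 3512 to 5166 CPM in females with a median of 4422 CPM, and the males were at 1980, 2449, 1684, 3455 and 1965 CPM. The sexes did not overlap, but the highest male, replicate 4, came close to the lowest female. The log2 fold change was -0.96 (SE 0.18, adjusted p = 0.0326), or 1.94-fold higher in females, and it was -0.86, -1.34 and -0.86 within the library numbers. The call did not hold without male replicate 3 (-0.83, adjusted p = 0.154). Without each of the other libraries the adjusted p ran from 0.0109 to 0.0842. TMSB10, on chromosome 11, had 3812 ± 748 CPM (mean ± SD, n = 6) for the female pools and 4209 ± 1266 CPM (n = 5) for the male pools, a log2 fold change of 0.08 (SE 0.20). TMSB4X took from 44.1% to 58.2% of beta-thymosin counts in females, with a median of 55.4%, and 38.3%, 36.2%, 36.2%, 35.9% and 30.8% in the males, with no overlap. Thymosin genes have near-identical processed copies in mammalian genomes, and reads could be shared with these.

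Such shares were set side by side for 12 families of alternative genes. The sexes were separated in 3 of them, the ERM genes, the ARPC5 pair and the beta-thymosins, which are those that hold a called member. In the other 9 the ranges overlapped. ACTB took 76.7% ± 3.35 (mean ± SD, n = 6) of the counts of the cytoplasmic actins for the female pools and 79.2% ± 2.68 (n = 5) for the male pools. MYH9 took 77.3% ± 3.84 (mean ± SD, n = 6) of the counts on the MYH9 and MYH10 pair for the female pools and 78.5% ± 3.74 (n = 5) for the male pools. These shares are descriptions without a test. They use the same counts as the calls, so their separation is not separate support. How often such shares separate in other gene families was not computed.

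**Figure D3:**
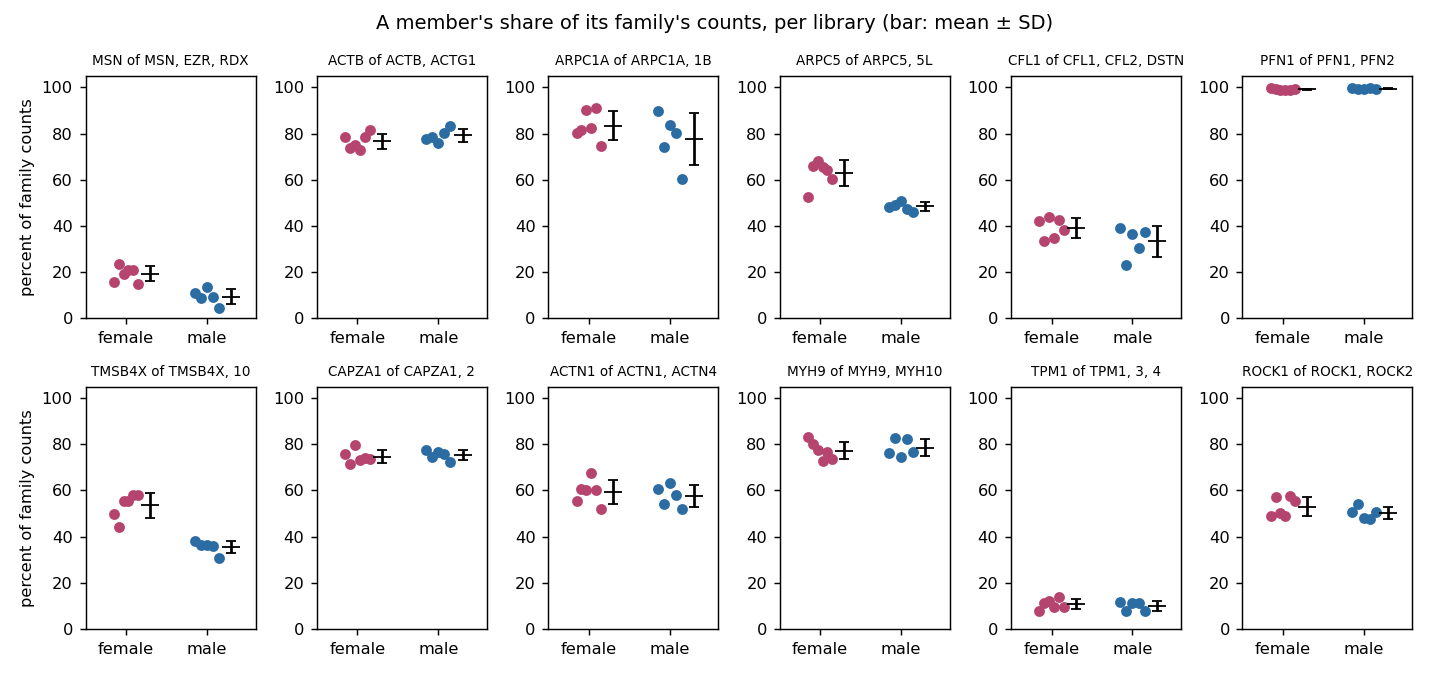
Share of a family's counts (vertical axis, percent, from 0) taken by the first-named gene in each of the 6 female and 5 male libraries, with the mean ± SD beside the points, for 12 families. The sexes separate for MSN (14.9% and more against 13.4% and less), ARPC5 (52.7% and more against 50.9% and less) and TMSB4X (44.1% and more against 38.3% and less), and overlap in the other 9 families.

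The genes that turn filaments over were not called. DSTN (chromosome 13, 37954770 to 37979552) encodes destrin, which severs old filaments together with the cofilins. It ran from 1705 to 3279 CPM in females with a median of 2306 CPM, and the males were at 2324, 2763, 3014, 3327 and 3117 CPM. All males were above the female median, at a log2 fold change of 0.29 (SE 0.16, adjusted p = 0.476). The cofilins CFL1 and CFL2 had -0.06 and 0.18. PFN1 (chromosome 19, 26447402 to 26450242), the main profilin, ran from 2781 to 4739 CPM in females with a median of 3179 CPM, and the males were at 3604, 3913, 3225, 5228 and 6506 CPM. Its log2 fold change was 0.29 (SE 0.15, adjusted p = 0.436), with overlap in 3 males. PFN2 had -0.22 and made up 1.25% or less of profilin counts in every library.

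The capping proteins close the growing end of a filament. CAPZB (chromosome 2, 133201137 to 133340627), the shared beta subunit, ran from 155 to 369 CPM in females with a median of 241 CPM, and the males were at 280, 122, 335, 284 and 443 CPM. Its log2 fold change was 0.20 (SE 0.28, adjusted p = 0.818), and the males spanned more than the female range. The alpha subunits CAPZA1 and CAPZA2 had 0.10 and 0.03. GSN (chromosome 8, 110672965 to 110733958), the gelsolin that cuts and caps filaments, was at 8.38, 7.38, 49.6, 16.8, 16.3 and 6.99 CPM in the females and at 18.6, 14.4, 6.31, 13.8 and 12.0 CPM in the males. One female library was far above all the others, and the log2 fold change of 0.03 (SE 0.52, adjusted p = 0.989) was the least precise but for ARPC1B. VIL1, the villin of microvilli, had 0 to 3 counts in each library and was not tested. It had 3 counts in female replicate 2 and male replicate 2, 1 in female replicates 3 and 4, and 0 in the others. Counts this low do not set a level, and a count of 0 still allows up to 3 counts. Such limits cover counting error only, as the reads carry no molecular identifiers.

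The crosslinkers lay on the female side of 0 and the myosin II genes were split, with none called. ACTN1 (chromosome 10, 80672876 to 80770960), an alpha-actinin that bundles filaments, ran from 107 to 153 CPM in females with a median of 124 CPM, and the males were at 125, 50.3, 142, 82.9 and 117 CPM. It had -0.30 (SE 0.22, adjusted p = 0.621) and ACTN4 had -0.26, and both were lowest in male replicate 2. The heavy chains of myosin II, MYH9 and MYH10, had -0.30 and -0.33. Its light chains lay on the other side of 0, with 0.36 for MYL6 and 0.30 for MYL12B. MYL6 (chromosome 5, 57161868 to 57165000) ran from 1435 to 2191 CPM in females with a median of 1761 CPM, and the males were at 1900, 2144, 2379, 2551 and 2732 CPM. The upper 3 males were above all females, and the log2 fold change had an SE of 0.13 and an adjusted p of 0.260. MYL12B reads can be shared with its near-identical paralog MYL12A.

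The tropomyosins coat filaments and set which proteins can bind them. TPM3 (chromosome 3, 16318632 to 16346045) ran from 508 to 973 CPM in females with a median of 708 CPM, and the males were at 897, 765, 772, 990 and 1095 CPM. Its log2 fold change was 0.31 (SE 0.13, adjusted p = 0.326), with overlap in 3 males. It overlaps UBAP2L and NUP210L in the annotation, and the strand used in counting is not given in the sources used here. TPM1 and TPM4 had 0.16 and 0.18.

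The small GTPases switch the cortex between branched and contractile states. CDC42 (chromosome 2, 130733638 to 130754601), a polarity GTPase, ran from 205 to 375 CPM in females with a median of 306 CPM, and the males were at 299, 413, 430, 418 and 303 CPM. It had 0.37 (SE 0.18, adjusted p = 0.427), with 3 males above all females. RAC1 had 0.15 and RHOA -0.12. The kinase genes ROCK1 and ROCK2, whose products activate myosin II, were both on the female side without a call. ROCK1 (chromosome 24, 35015582 to 35140283) ran from 124 to 166 CPM in females with a median of 155 CPM, and the males were at 113, 95, 148, 93.1 and 66.5 CPM. Only male replicate 3 lay within the female range. Its log2 fold change was -0.55 (SE 0.16, adjusted p = 0.154), which missed both thresholds, and the differences within the library numbers were -0.64, -0.08 and -0.79. ROCK2 had -0.34 (SE 0.18).

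Many members moved together from library to library within a sex. ACTB was compared with each other member over the 11 libraries after the mean of each sex had been taken out. These values share a library, its depth and its scaling, and the correlations are given as descriptions. The library number was not taken out. The libraries of number 2 were female replicates 3 and 4 and male replicate 3. They were the lowest in ACTB (9957, 10899 and 11309 CPM) and the highest in RDX (154, 152 and 194 CPM). Of 38 members, 13 had a Pearson r over 0.8 with ACTB, where 5.34% of all tested genes did. Those over 0.9 were ACTG1, ACTR3, ARPC2, ARPC5, ARPC5L, EZR and PFN1, against 1.11% of all tested genes. Opposite to ACTB were RDX, with an r of -0.88 and a Spearman correlation of -0.96, and ROCK1, with -0.81 and -0.75. These were the 2 of 38 members with an r under -0.8, a share near the 5.22% of all tested genes. For EZR, r was 0.95 and the Spearman correlation 0.94, so that the ERM genes EZR and RDX ran in opposite directions. MSN and TMSB4X followed neither, with an r of 0.16 and 0.23. Leaving out the 2 libraries farthest from the median, male replicate 5 and female replicate 6, gave 0.90 for EZR, -0.86 for RDX, 0.99 for ARPC5L, 0.88 for ARPC5 and -0.53 for ROCK1. In these 9 libraries, 8 members were over 0.8 and 4 over 0.9 (ACTG1, ACTR3, ARPC5L and EZR), against 3.65% and 0.805% of all tested genes. Under -0.8 was 1 member, RDX, against 3.26% of all tested genes. Among those that dropped under 0.8 were RAC1 (0.47), TPM4 (0.64), ARPC3 (0.67), TPM3 (0.68) and ARPC1B (0.74).

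**Figure D4:**
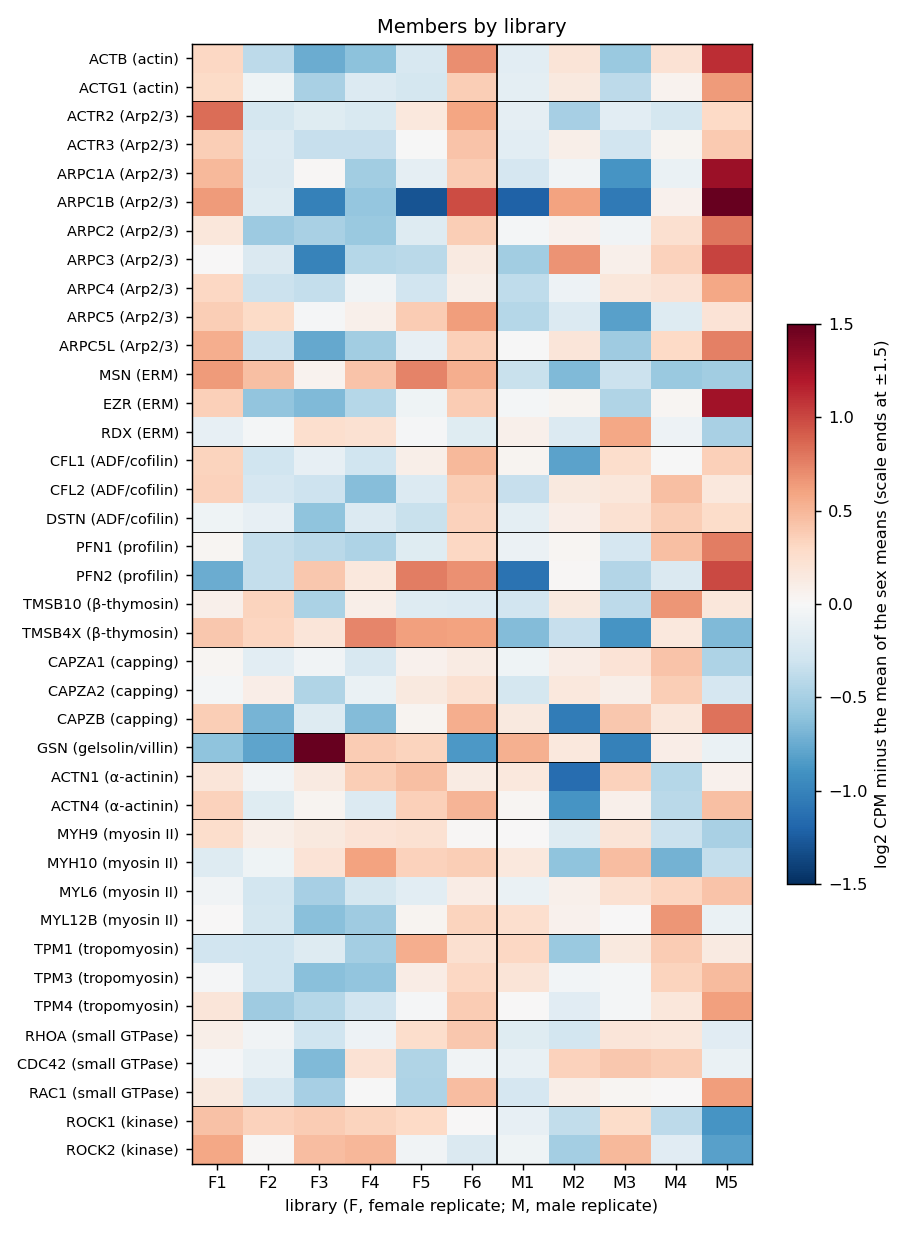
Log2 CPM of the 39 tested members in each library, as the difference from the mean of the female and male means (colour, red above and blue below, with the scale ending at ±1.5), ordered by role with females to the left of the line. Actin, most Arp2/3 genes, EZR and PFN1 are high in M5 and F6 and low in F3, RDX and ROCK1 are low in M5, and MSN is high in females and low in males throughout.

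Some cell type markers followed ACTB and others ran against it. The 10 trophectoderm markers summed to 7879 to 23154 CPM in females and 9195 to 36145 CPM in males, with none called, and the highest sums were in male replicate 5 and female replicates 1 and 6. These sums were mostly KRT8, LGALS3, PTGS2 and KRT18, while CDX2 was at 25.3 CPM or less in every library. In the within-sex comparison with ACTB, KRT8, a keratin of epithelia, had an r of 0.96 and DAB2, an endocytic adaptor of extraembryonic cells, an r of 0.93, while the trophectoderm transcription factors GATA3 and TFAP2C had 0.51 and -0.03. PDGFRA, a receptor of the hypoblast, had -0.92, and GATA6, from the same hypoblast list, had -0.79. The other hypoblast markers were not compared with ACTB. SPIC, from the inner cell mass list, had -0.88. The pluripotency genes POU5F1 and NANOG of that list were at 0.48 and 0.10. Set against ACTB in the same way, the number of genes with a count had an r of -0.76, or -0.81 without the 2 farthest libraries. The log2 total count had an r of 0.59, or 0.11 without them. Without these 2 libraries KRT8 had 0.95, DAB2 0.86, PDGFRA -0.84, GATA6 -0.47 and SPIC -0.65. Whether the share of trophectoderm in a piece of embryo, depth or the library number had a part in these levels was not tested. The 6 inner cell mass markers in the table summed to 560 to 980 CPM in females and 792 to 1076 CPM in males, the 7 hypoblast markers to 228 to 621 CPM and 208 to 467 CPM, and none was called. The cumulus markers summed to at most 32.7 CPM and the blood markers to at most 10.7 CPM, with PTPRC and HBB at 0 in all libraries. INHA was at 0 in 9 libraries and FOXL2 in 10, all males among them, and their highest counts were 4 and 1. Of the 9 tested immediate early genes, none was called and all 9 had a negative log2 fold change, with sums of 421 to 635 CPM in females and 222 to 557 CPM in males.

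Beyond the 40, 195 further genes of the actin cytoskeleton were listed, of which 191 were in the table and 175 were tested. Their median log2 fold change was -0.08, and 2 were called, 1 in each direction. Of all tested genes, 1.5% were called higher in females and 0.414% higher in males. ACTC1 (chromosome 10, 30288631 to 30293908), the cardiac alpha-actin, ran from 8.53 to 32.5 CPM in females with a median of 16.0 CPM, and the males were at 25.9, 18.5, 57.2, 62.1 and 45.8 CPM. The upper 3 males were above all females, and the log2 fold change was 1.22 (SE 0.26, adjusted p = 0.0453). ACTC1 was not called without the library number in edgeR or DESeq2, nor when any one of female replicates 1 and 2 and male replicates 1 and 3 was left out. SHROOM2 (X chromosome, 133140668 to 133282702), which recruits contractile actin to junctions, ran from 8.68 to 20.9 CPM in females with a median of 14.7 CPM, and the males were at 5.79, 9.51, 6.50, 3.5 and 4.80 CPM. Only male replicate 2 reached into the female range, and the log2 fold change was -1.34 (SE 0.30, adjusted p = 0.0642). SHROOM2 was called in 4 of the 11 fits without 1 library, those without female replicates 1 and 3 and male replicates 2 and 5.

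By list, 1 of 7 tested actins and actin-related genes and 1 of 22 myosin and contractility genes were called. Of the regulators of Arp2/3 (26 tested), formins and other nucleators (15), turnover factors (20), crosslinkers and spectrins (18), ERM partners and kinases (14), regulators and effectors of the small GTPases (43) and genes of the serum response factor axis (10), none was called. At an unadjusted p under 0.05, 9 of these 146 genes lay on the female side and 4 on the male side, against 6.95% and 6.26% of all tested genes. Of all the further genes, 12 on the X chromosome were tested, 11 had a negative log2 fold change and the median was -0.89. Over all 476 tested X-linked genes, 449 had a negative value and the median was -0.85. FLNA, the crosslinker filamin A, had -0.66 (SE 0.21, adjusted p = 0.188), and DIAPH2, a formin, had -1.15 (SE 0.56). MPP1, of the membrane skeleton, had -0.38, and PLS3, a bundling plastin, had -0.35. The exchange factor gene ARHGEF6 had -1.18 (SE 0.62), and the kinase gene PAK3 was the exception at 0.61 (SE 0.67). The septin gene SEPTIN6 had -1.12 (SE 0.59) at 1.83 CPM or less.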

How the data were processed

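Per the submitters' processing notes and the study's methods, trimming used fastp 0.20.0 and alignment used STAR 2.7.10b on ARS-UCD, at most 3 mismatches being allowed. The counts deposited by the authors are whole, unnormalized featureCounts values per gene. Libraries were made with a full-length cDNA kit without molecular identifiers. Gene positions are from RefSeq for the same assembly (30271 of 32637 symbols matched). The strand setting is not given in the sources used here, and no sequences or exon lengths were used, so levels are compared within genes, and ranks and shares are of counts, not per length.

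Tests were run in edgeR 4.0.16 (R 4.3.3). After filterByExpr by sex, 12802 genes were tested with TMM factors by the quasi-likelihood test of males against females, with the library number (first number of the library name, 1 to 3) as a block. The study adjusted for collection week, and whether the library number marks the week is not known. Calls required an FDR under 0.1 and a fold over 1.5. SE was the absolute log2 fold change over the square root of F, and log2 CPM had 2 as prior count. P-values measure the spread between pools. Alternatives used limma 3.58.1 and DESeq2 1.42.0. The members and lists were chosen with earlier results of these data known. Full values are given for called and X-linked members and for the member with the smallest adjusted p of each role. Of the other lists, full values are given for called genes and the log2 fold change for X-linked genes (at most 5 per list). Some X-linked genes of these lists are not reported here by name.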

Additional observations from a re-analysis of the deposited data

Results flagged for a closer look

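Of 78 groups of values (39 members in each sex), 6 held a library far from the others of its sex by Dixon's criterion, where chance gives about 1 in 20. Of these, 4 were in male replicate 5, at 780 CPM for ARPC1A (next male 308 CPM), 515 CPM for ARPC1B (next 108 CPM), 2052 CPM for ARPC2 (next 1395 CPM) and 3929 CPM for EZR (next 1685 CPM). GSN stood at 49.6 CPM in female replicate 3, against 16.8 CPM in the next female. ROCK1 stood at 124 CPM in female replicate 6, below the next female at 151 CPM.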

How the results depend on the processing

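Of the 3 called members, MSN kept its call in 11 of 12 other settings and in all 11 fits without 1 library (-1.11 to -0.91), TMSB4X in 11 and 10 (-1.13 to -0.83), and ARPC5 in 7 and 4 (-0.71 to -0.56). ARPC5 was lost without the library number (-0.55 in edgeR and -0.55 in DESeq2), with a replicate block on the title's replicate number (-0.50), at an FDR of 0.05 and in glmTreat, a test of the 1.5-fold itself, and its adjusted p ran from 0.00208 to 0.274 apart from glmTreat. In glmTreat 0 members were called and MSN had an adjusted p of 0.311. ROCK1 was called in 1 setting, DESeq2 with both numbers of the library name (-0.59). The member count was 3 or 2 in the remaining settings, and 1 to 3 without 1 library, with 1 (MSN) without male replicate 3.

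Between females and males of the same title replicate number, the correlations of within-sex deviations were -0.11, 0.24, 0.35, 0.03 and -0.07. For the library number they averaged 0.07 over the 10 pairs of the same number (-0.11 to 0.35). Over the 20 pairs of different numbers the mean was -0.04, so neither number clearly paired the sexes. A block on the title's number left 2 members, 0 other actin genes (ACTC1 and SHROOM2 both lost) and 132 of all genes called. The 2 called other actin genes became 1 without the library number, 6 with DESeq2 and the library number, 4 with DESeq2 without it, 9 with DESeq2 and both numbers, 8 with voom weights, 5 when every gene with 1 count was tested, 1 at an FDR of 0.05, 0 in glmTreat, and 0 to 7 without 1 library (7 without male replicate 5). The 245 calls over all genes became 326 without the block, 655, 739 and 837 with DESeq2 (library number, none, both), 483 with voom weights, 743 with every gene of 1 count, 125 at an FDR of 0.05, 62 in glmTreat, and 95 (without male replicate 3) to 364 (without male replicate 5). DESeq2 with both numbers shifted the median of all genes to -0.11. The causes were not tested.

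The median over members stayed between 0.03 and 0.15. Some uncalled members turned sign, most of them near 0 in the main fit, but ARPC1B had 0.48 there. Without the library number, ACTR3 was 0.016 in edgeR, ARPC1A 0.15, RDX -0.0085 and GSN -0.44, and in DESeq2 0.018, 0.15, -0.0034 and -0.43. With the title block, ACTR3 was 0.12, ARPC1A 0.064, RDX -0.085, CFL1 0.033 and GSN -0.25. With voom weights, ACTG1 was -0.030, ARPC1B -0.13, TMSB10 -0.051 and GSN -0.33. With a mean CPM of at least 5, RDX was -0.0095, CAPZA2 -0.013 and GSN -0.0048. Without 1 library, the ranges were -0.073 to 0.13 for ACTG1, -0.10 to 0.064 for ACTR3, -0.39 to 0.14 for ARPC1A, -0.27 to 0.82 for ARPC1B, -0.076 to 0.11 for RDX, -0.24 to 0.089 for CFL1, -0.021 to 0.23 for CAPZA1, -0.085 to 0.13 for CAPZA2, -0.023 to 0.43 for CAPZB, -0.085 to 0.19 for TMSB10 and -0.22 to 0.61 for GSN.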
